A study of Mus musculus with 4 samples.

Results

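The 45 genes described here encode the subunits of the constitutive proteasome together with its assembly chaperones, activators and inhibitor. They were taken by name from the gene lists of the 4 tumour files: every symbol made of Psm, a letter from a to g and a number, leaving out Psmb8, Psmb9 and Psmb10, the catalytic subunits of the immunoproteasome. They are 45 of the 33219 genes listed in at least 1 file. All 45 were listed in tumour 1, 44 in tumour 2, 43 in tumour 3 and 44 in tumour 4. The samples were 4 untreated end-point medulloblastomas of the sonic hedgehog subgroup, each from a Ptch1+/- mouse irradiated at birth. The animals were born with 1 wild-type copy of Ptch1, the hedgehog receptor that restrains the pathway, and radiation of the newborn brings on tumours of the cerebellar granule lineage. All 4 tumours share genotype, irradiation and lack of treatment, and no normal cerebellum is among them, so the comparisons below run between cell classes within tumours. Live cells were sorted from thawed single-cell suspensions and sequenced as single cells on the 10x Genomics platform, which counts each captured transcript once through a unique molecular identifier (UMI).

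The proteasome is the barrel-shaped protease that degrades ubiquitin-tagged proteins in the cytosol and nucleus. Its core particle stacks rings of alpha subunits, which gate the entrance, around rings of beta subunits, of which Psmb5, Psmb6 and Psmb7 carry the chymotrypsin-like, caspase-like and trypsin-like active sites. The regulatory particle that caps the core has a base of ATPases (Psmc genes) and ubiquitin receptors, and a lid built around the deubiquitinase Psmd14. Cells exposed to interferon gamma replace the catalytic subunits with Psmb8, Psmb9 and Psmb10 and make the PA28 activator of Psme1 and Psme2, which favours production of peptides for MHC class I. Psme3 forms a nuclear PA28 ring, Psme4 a further activator, and Psmf1 a protein named as an inhibitor. Dividing cells depend on the proteasome because the anaphase-promoting complex marks cyclins and securin for it.

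Psme1 (chr14:55578123-55581529, plus strand) and Psme2 (chr14:55587441-55591113, minus strand) were the members with the widest range over cell classes, and their genes face each other 5911 bases apart in the GENCODE M21 annotation of GRCm38. Psmb5 (chr14:54614119-54618022, minus strand) has the thymus subunit gene Psmb11 as a neighbour 3410 bases away. The other members lay scattered over the genome, and the 48 genes looked up, which include the 3 of the immunoproteasome, fell on 16 chromosomes. Promoter windows of 250 bases before the annotated start were at hand from RefSeq (GRCm38.p6) for 37 of the 45 genes. The windows were searched on both strands for CCAAT (the NF-Y box), GGAAG (an ETS core), CACGTG (an E-box) and TGACNNNGC (the antioxidant response element bound by NRF1 and NRF2, the factors that raise proteasome genes when the proteasome is inhibited); none of these motifs holds another. GGAAG was present in 32 of the 37 windows, 86.5%, against 63.6% of all 27025 windows. TGACNNNGC was present in 5 of the 37 windows, 13.5%, against 10.1% of all 27025 windows, and the members that held it were Psmb5, Psmb6, Psmc6, Psmd12 and Psmd9. CCAAT was present in 13 of the 37 windows, 35.1%, against 34.5% of all 27025 windows. CACGTG was present in 3 of the 37 windows, 8.11%, against 6.05% of all 27025 windows. A match describes letters only and is not a binding site. The stretches of those windows that lie outside every annotated exon of the gene are printed for Psme1, Psme2 and Psma2, which rose in myeloid-like cells (the window of Psme1 yields 111 bases, since annotated exons of the gene take up the rest), and for Psmb5 and Psmc6, which fell there and whose windows hold TGACNNNGC. The RefSeq start of Psme1, at 55578494, lies inside the GENCODE span of the gene. Its printed stretch therefore lies within the annotated gene, between exons, and not before its GENCODE start. Each reads 5′ to 3′ along the strand of its gene, with matches on either strand in capitals.
Psme1, chr14:55578249-55578359, plus strand: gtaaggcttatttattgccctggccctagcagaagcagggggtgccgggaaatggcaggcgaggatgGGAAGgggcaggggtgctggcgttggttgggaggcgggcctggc
Psme2, chr14:55591114-55591351, minus strand: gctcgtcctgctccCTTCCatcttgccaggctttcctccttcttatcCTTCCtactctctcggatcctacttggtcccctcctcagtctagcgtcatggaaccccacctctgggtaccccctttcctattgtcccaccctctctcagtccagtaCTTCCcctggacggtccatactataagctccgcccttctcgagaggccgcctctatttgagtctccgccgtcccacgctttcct
Psma2, chr13:14612992-14613239, plus strand: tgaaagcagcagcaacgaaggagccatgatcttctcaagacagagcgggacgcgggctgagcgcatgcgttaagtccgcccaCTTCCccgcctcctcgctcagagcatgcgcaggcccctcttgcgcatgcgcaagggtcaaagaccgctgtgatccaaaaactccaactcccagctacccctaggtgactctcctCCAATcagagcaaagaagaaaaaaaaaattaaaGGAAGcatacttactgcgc
Psmb5, chr14:54618023-54618245, minus strand: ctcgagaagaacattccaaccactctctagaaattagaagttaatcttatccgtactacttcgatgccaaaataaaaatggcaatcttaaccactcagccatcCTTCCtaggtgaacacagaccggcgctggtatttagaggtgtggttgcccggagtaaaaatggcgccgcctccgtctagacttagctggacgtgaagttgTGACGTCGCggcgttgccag
Psmc6, chr14:45329574-45329787, plus strand: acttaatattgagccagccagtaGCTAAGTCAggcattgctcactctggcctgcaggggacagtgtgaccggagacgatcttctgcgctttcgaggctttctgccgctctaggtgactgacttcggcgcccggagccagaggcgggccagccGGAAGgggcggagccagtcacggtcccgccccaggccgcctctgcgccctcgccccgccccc
The PA28 stretches held 1 and 3 GGAAG matches in Psme1 and Psme2 and no match to the other motifs. Psmb5 and Psmc6 each held 1 TGACNNNGC match, in the minus-strand reading for Psmc6.

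The files held 798, 2589, 1229 and 1893 cells and 19446245, 23439893, 10458431 and 18242667 UMIs in tumours 1 to 4. Tumour 1 was sequenced deepest per cell, with a median of 15284 UMIs against 6799 to 7825 in the others. Cells were clustered and the clusters named from marker genes as progenitor-like (540, 1896, 977 and 309 cells in tumours 1 to 4), neuron-like, astrocyte-like, oligodendrocyte lineage-like, myeloid-like, T and NK cell-like, dendritic-like, neutrophil-like and skeletal muscle-like, with 4 to 323 cells per tumour left unnamed. Within the progenitor-like cells, phases were set by the median log2 fold of cell cycle markers against all other cells. Clusters higher by at least 1 are called cycling-like. Clusters lower by at least 1, with granule progenitor markers not lower, are called granule progenitor-like, and the rest were of mixed phase. Tumour 4 stood apart: it held no neuron-like cell, 9 cycling-like cells and 1 granule progenitor-like cell, and mixed-phase clusters held 299 of its 309 progenitor-like cells. The 13 myeloid markers, which summed to 28834, 33973, 46216 and 34325 UMIs per 1000000 UMIs of the class (CPM) in the myeloid-like cells of tumours 1 to 4, were present in progenitor-like cells at 274, 37.0, 20.8 and 1014 CPM. Neutrophil markers in the progenitor-like cells summed to 121, 11.5, 7.23 and 1087 CPM and T and NK cell markers to 7.31, 1.06, 0.115 and 126 CPM, so that tumour 4 was the highest for all 3 lists. Their part in the results that set other classes against progenitor-like cells was not tested, except where values without tumour 4 are given. Between any pair of libraries, 0 to 7 cell barcodes were shared.

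In whole tumours the members formed tiers by role. The alpha and beta subunits of the core had means from 209.8 to 537 CPM over the 4 tumours, and apart from Psma2 each exceeded every other member. Psma7 led with 568, 587, 556 and 435 CPM in tumours 1 to 4, and Psmb1 was the most even with 469, 475, 459 and 449.9 CPM. Both are structural ring subunits, and tumour 4 was the lowest for each. The catalytic Psmb6 averaged 388 ± 61.3 CPM, Psmb5 301 ± 27.3 CPM and Psmb7 282 ± 49.3 CPM (SD, n = 4). The 9 base genes had means between 114 and 199 CPM and the 8 lid genes between 104 and 221 CPM, with the deubiquitinase Psmd14 at 156 ± 45.0 CPM. The core chaperones Psmg1 to Psmg4, which help to build the alpha ring, and the base chaperones Psmd5, Psmd9 and Psmd10 lay lower, between 39.9 and 75.2 CPM. Psme2 averaged 144 ± 68.4 CPM, Psme1 125 ± 81.8 CPM and Psme3 79.7 ± 21.1 CPM, while Psmf1 and Psme4 were the lowest of the 43 genes listed in every file, at 27.8 ± 3.14 CPM and 25.5 ± 5.62 CPM. Each transcript counts once whatever its length, so these levels were not divided by length, and capture can differ between genes. In these summed values, fewer cells of a type and less RNA per cell cannot be told apart.

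**Figure D1:**
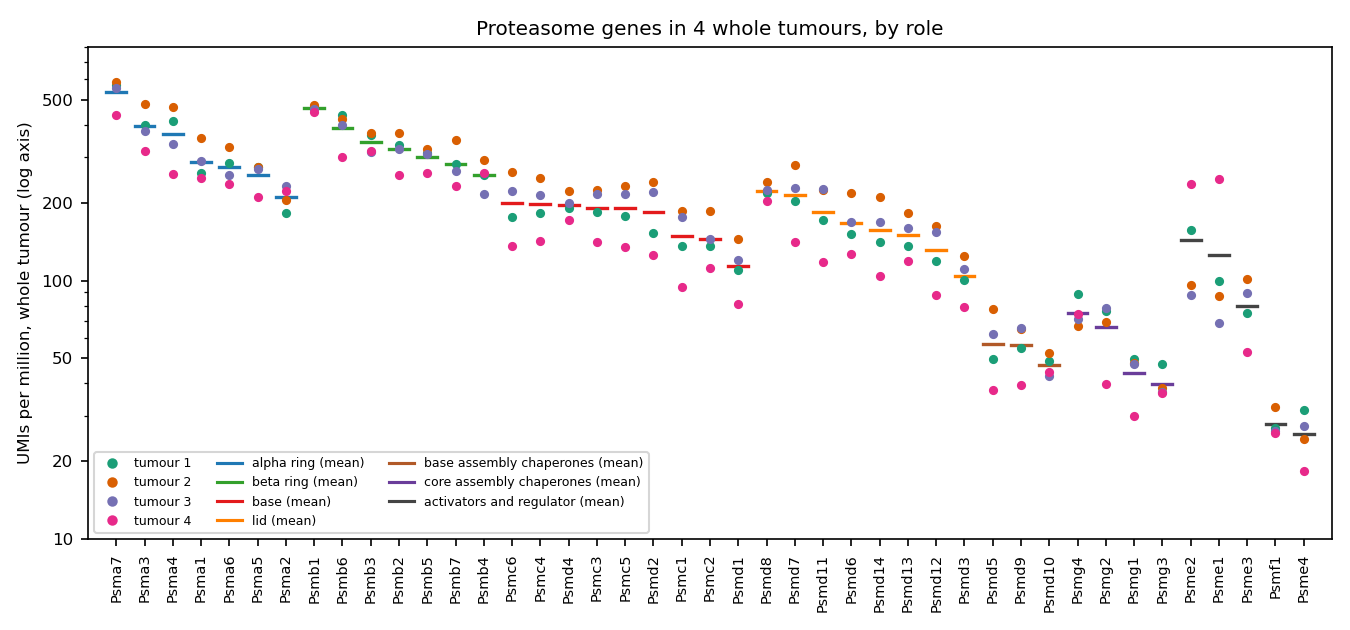
CPM in each whole tumour (log axis) for the 43 genes listed in all 4 files, ordered by role and by mean. Points are tumours and bars the mean of 4 tumours. Most core subunits sit highest, chaperones, Psmf1 and Psme4 lowest, and tumour 4 is the lowest point of most genes while it is the highest for Psme1 and Psme2.

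The order of the members was shared among the tumours: Spearman's rho across the 43 genes lay between 0.874 and 0.972 over the 6 pairs of tumours, a description across genes that share their libraries. The median coefficient of variation over tumours was 19.8%. Tumour 4 was the lowest in 36 of the 43 genes and tumour 2 the highest in 32. Psme1 and Psme2 went the other way. Psme1 had 99.9, 86.8, 68.3 and 246 CPM and Psme2 156, 95.8, 87.7 and 236 CPM in tumours 1 to 4, so that tumour 4 was the highest for both. All members together took 8333, 9651, 8477 and 7002 CPM in whole tumours 1 to 4, and 8361, 9845, 8537 and 8512 CPM among progenitor-like cells alone. Within progenitor-like cells tumour 4 was the lowest in 11 of the 43 genes, and the median coefficient of variation was 13.9%. Myeloid-like cells, where most members were lower, made up 24.5% of the cells of tumour 4. In tumours 1 to 3 they made up between 0.981% and 10.3%. Tumour 4 also held neutrophil-like (20.1%), dendritic-like, T and NK cell-like and unnamed cells, and 16.4% of its cells were progenitor-like. The part of any of these classes in the low whole-tumour values of tumour 4 was not tested.

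Transcripts of the base and lid members were fewer than those of the core members in every class and tumour, by a ratio that differed between tumours. Among progenitor-like cells the summed base and lid CPM divided by the summed alpha and beta CPM was 0.544, 0.678, 0.689 and 0.549 in tumours 1 to 4. Tumours 2 and 3 lay above tumours 1 and 4. These sums hold members only and leave out the lid subunit Shfm1 (Sem1), whose symbol lies outside the naming rule. Its CPM in progenitor-like cells, given below, was highest in tumour 4, and its part in the order of tumours was not tested. The cycling-like cells gave 0.589, 0.691 and 0.710 in tumours 1 to 3, the granule progenitor-like cells 0.587, 0.664 and 0.687 and the neuron-like cells 0.628, 0.717 and 0.696, so that tumour 1 was the lowest of the 3 in each class. The myeloid-like cells gave 0.537, 0.523, 0.536 and 0.481 in tumours 1 to 4, below the progenitor-like ratio of the same tumour in all 4. No test was made of these ratios.

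Across the 7 classes measured in at least 3 tumours, a member's highest class mean was between 1.24 and 5.97 times its lowest, with a median of 1.80. The myeloid-like class held the lowest mean of 34 of the 43 genes. The share of all genes lowest there was not computed, though 7458 of 9796 genes tested were lower in myeloid-like than in progenitor-like cells. The cycling-like class held the highest mean of 12, the granule progenitor-like class of 9 and the neuron-like class of 8. Progenitor-like cells include both of the first 2 classes. These 3 class means rest on tumours 1 to 3, the oligodendrocyte lineage-like mean on tumours 2 to 4 and the others on all 4. The range exceeded 2 times for 13 genes, and those of Psme1 and Psme2 were the widest. Of the 45 members, 43 passed the filter for low values in each comparison below; Psma8 and Psmb11 did not. Differences are in log2(CPM + 10) with their standard errors, and a gene is called when its limma p, adjusted over all genes tested, is under 0.05. The classes were drawn from the expression of the same cells, with the genes used for clustering and naming left out of the tests.

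Myeloid-like cells had lower transcript shares of most proteasome genes than progenitor-like cells and higher shares of the PA28 genes. Of the 43 genes, 32 fell and 3 rose, and 8 did not pass the test. Among all 9796 genes tested 61.7% were called, 50.3% lower and 11.5% higher, so a majority of calls toward lower values was shared by the background. The median difference was -0.56 for the 43 genes, beside -0.49 for all 9796 genes tested. By role, 5 of 7 alpha subunits, 5 of 7 beta subunits, 8 of 9 base genes, 7 of 8 lid genes, 2 of 3 base chaperones and 3 of 4 core chaperones fell. The tumours did not overlap between the classes for 3 members that were higher and 28 that were lower, against 10.2% and 40.1% of all genes tested. The members that did not pass were Psma1, Psmb1, Psmb3, Psmc2, Psmd8, Psmd10, Psmf1 and Psmg4.

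The base ATPase Psmc6 fell the most, with 86.2, 103, 90.4 and 83.7 CPM in myeloid-like cells, against 179, 270.1, 228 and 219 CPM in progenitor-like cells of tumours 1 to 4 (difference -1.20 ± 0.16, limma adjusted p = 2.24e-05). The lid scaffold Psmd7 had 122, 96.3, 113 and 105 CPM in myeloid-like cells, against 202, 288, 234 and 183 CPM in progenitor-like cells (difference -0.98 ± 0.17, limma adjusted p = 0.000261). Neither gene's groups overlapped. The lid subunit Psmd3 had 59.3, 55.4, 45.2 and 65.7 CPM in myeloid-like cells, against 100.1, 129, 112 and 104 CPM in progenitor-like cells (difference -0.87 ± 0.18, limma adjusted p = 0.000868). The base ATPase Psmc1 had 91.6, 84.2, 102 and 72.1 CPM in myeloid-like cells, against 134, 189, 173 and 156 CPM in progenitor-like cells (difference -0.83 ± 0.17, limma adjusted p = 0.000827), and the deubiquitinase Psmd14 had 104, 114, 102 and 74.4 CPM in myeloid-like cells, against 142, 213, 169 and 139 CPM in progenitor-like cells (difference -0.69 ± 0.16, limma adjusted p = 0.00225). All 3 were lower in each tumour, with no overlap between the classes.

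The catalytic subunits fell by different amounts. The trypsin-like Psmb7 had 159, 154, 124 and 176 CPM in myeloid-like cells, against 288, 359, 266 and 339.7 CPM in progenitor-like cells (difference -0.98 ± 0.15, limma adjusted p = 7.18e-05). The chymotrypsin-like Psmb5 had 196, 191, 282 and 214 CPM in myeloid-like cells, against 310.0, 330.4, 309 and 349 CPM in progenitor-like cells (difference -0.55 ± 0.15, limma adjusted p = 0.00662), again without overlap. The caspase-like Psmb6 had 302, 304, 407 and 258 CPM in myeloid-like cells, against 448, 428, 403 and 405 CPM in progenitor-like cells (difference -0.41 ± 0.15, limma adjusted p = 0.0246). The groups overlapped for Psmb6, whose value in the 12 myeloid-like cells of tumour 3 was above those in the progenitor-like cells of tumours 3 and 4, and its call was lost in 6 of 14 alternatives (limma adjusted p = 0.055 to 0.115 there, differences -0.56 to -0.30 over all of them), among them leaving out tumour 1, 2 or 4. Among alpha subunits Psma4 had 241, 250.3, 282 and 202 CPM in myeloid-like cells, against 428, 492, 343 and 352 CPM in progenitor-like cells (difference -0.70 ± 0.15, limma adjusted p = 0.00122), and Psma3 had 238, 291, 328 and 241 CPM in myeloid-like cells, against 404, 497, 386 and 395 CPM in progenitor-like cells (difference -0.60 ± 0.15, limma adjusted p = 0.00254). Psma2, named after its values were seen, was the single core subunit that rose (difference 0.48 ± 0.15, limma adjusted p = 0.0116): it had 242, 269.5, 395 and 254 CPM in myeloid-like cells, against 179, 202, 228 and 197 CPM in progenitor-like cells. Its groups did not overlap. With the mean of the log2 values the rise of Psma2 was not called, since the 2 members called higher there were Psme1 and Psme2.

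Chaperones and the nuclear activator fell too. Psmg2, which acts early in alpha ring assembly, had 48.5, 30.1, 45.2 and 20.8 CPM in myeloid-like cells, against 78.02, 75.9, 79.9 and 53.8 CPM in progenitor-like cells (difference -0.86 ± 0.19, limma adjusted p = 0.00138). Psmg3 had 32.3, 22.9, 11.3 and 35.0 CPM in myeloid-like cells, against 48.5, 39.6, 37.2 and 38.3 CPM in progenitor-like cells (difference -0.58 ± 0.22, limma adjusted p = 0.0321). Both were lower in each tumour. In the 12 myeloid-like cells of tumour 3, 3 UMIs amount to 33.9 CPM. The values there of Psmg3, and of Ddi2 and Uchl1 below, thus rest on 3 UMIs or fewer. The 45.2 CPM of Psmg2, Psme3 and Psmd3 in those cells rest on few more. The call on Psmg3 was lost in 8 of 14 alternatives (limma adjusted p = 0.0532 to 0.182 there, differences -0.78 to -0.17 over all of them), with cells thinned to 4900 UMIs and without tumour 1, 2 or 3 among them. The base chaperone Psmd5 had 26.9, 33.7, 56.5 and 24.0 CPM in myeloid-like cells, against 50.3, 80.0, 62.9 and 45.8 CPM in progenitor-like cells (difference -0.65 ± 0.20, limma adjusted p = 0.0126), and Psme3 had 61.4, 50.5, 45.2 and 38.4 CPM in myeloid-like cells, against 74.8, 107, 91.4 and 68.2 CPM in progenitor-like cells (difference -0.69 ± 0.19, limma adjusted p = 0.0055). The limma adjusted p of Psmd5 was 0.0961 without tumour 2. Of 31 proteasome partners tested, 5 rose and 14 fell, with a median of -0.47, beside 11.5% higher, 50.3% lower and a median of -0.49 for all genes tested. The stress-response factor Nfe2l2 (NRF2) had 171, 312, 158 and 281 CPM in myeloid-like cells, against 37.5, 52.9, 40.8 and 49.1 CPM in progenitor-like cells (difference 2.08 ± 0.18, limma adjusted p = 4.55e-07). Ddi2, the protease that activates the related factor NRF1, had 15.1, 18.0, 22.6 and 33.7 CPM in myeloid-like cells, against 10.8, 6.63, 9.29 and 9.75 CPM in progenitor-like cells (difference 0.73 ± 0.23, limma adjusted p = 0.0119). Both rose without overlap, and the limma adjusted p of Ddi2 was 0.0555 without tumour 2 and 0.0839 without tumour 4. The neuronal ubiquitin hydrolase Uchl1 had 2.15, 8.42, 33.9 and 6.36 CPM in myeloid-like cells, against 74.7, 112, 98.9 and 109 CPM in progenitor-like cells (difference -2.43 ± 0.25, limma adjusted p = 2.93e-06), and the ubiquitin ligase Ube3a had 44.2, 32.5, 0 and 39.0 CPM in myeloid-like cells, against 116, 161, 152 and 111 CPM in progenitor-like cells (difference -2.14 ± 0.36, limma adjusted p = 0.00028), each lower throughout; no UMI of Ube3a in the 12 cells of tumour 3 allows up to 33.9 CPM. The number of members called was 21 without tumour 2, of which 18 fell and 3 rose, and all 21 were among the 35. Without tumour 2, 39.1% of all genes were called lower and 8.99% higher.

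Psme1 and Psme2 rose together. Psme1 had 369.5, 348, 237 and 313 CPM in myeloid-like cells, against 80.9, 67.8, 64.7 and 102 CPM in progenitor-like cells (difference 1.88 ± 0.17, limma adjusted p = 6.63e-07). Psme2 had 395, 304, 305 and 284 CPM in myeloid-like cells, against 135, 77.9, 83.8 and 115 CPM in progenitor-like cells (difference 1.58 ± 0.16, limma adjusted p = 2.34e-06). In both genes every myeloid-like value lay above every progenitor-like value. Of the immunoproteasome genes, Psmb10 rose, with 172, 201, 147 and 178 CPM in myeloid-like cells, against 27.5, 26.6, 24.8 and 35.7 CPM in progenitor-like cells (difference 2.26 ± 0.18, limma adjusted p = 2.37e-07). Psmb8 had 599, 671, 452 and 428 CPM in myeloid-like cells, against 4.44, 1.11, 0.803 and 50.2 CPM in progenitor-like cells, and Psmb9 had 209, 183, 113 and 113 CPM in myeloid-like cells, against 1.76, 0.424, 0.229 and 16.6 CPM in progenitor-like cells. These 2 genes passed the filter on low values through the myeloid-like cells alone, so their values are a description, with no test. The groups were apart for all 3, and tumour 4 had the highest progenitor-like value of each. The progenitor-like cells of tumour 4 also carried the most myeloid, neutrophil and T and NK cell marker transcripts, and the part of these in their Psmb8, Psmb9 and Psmb10 values was not tested.

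**Figure D2:**
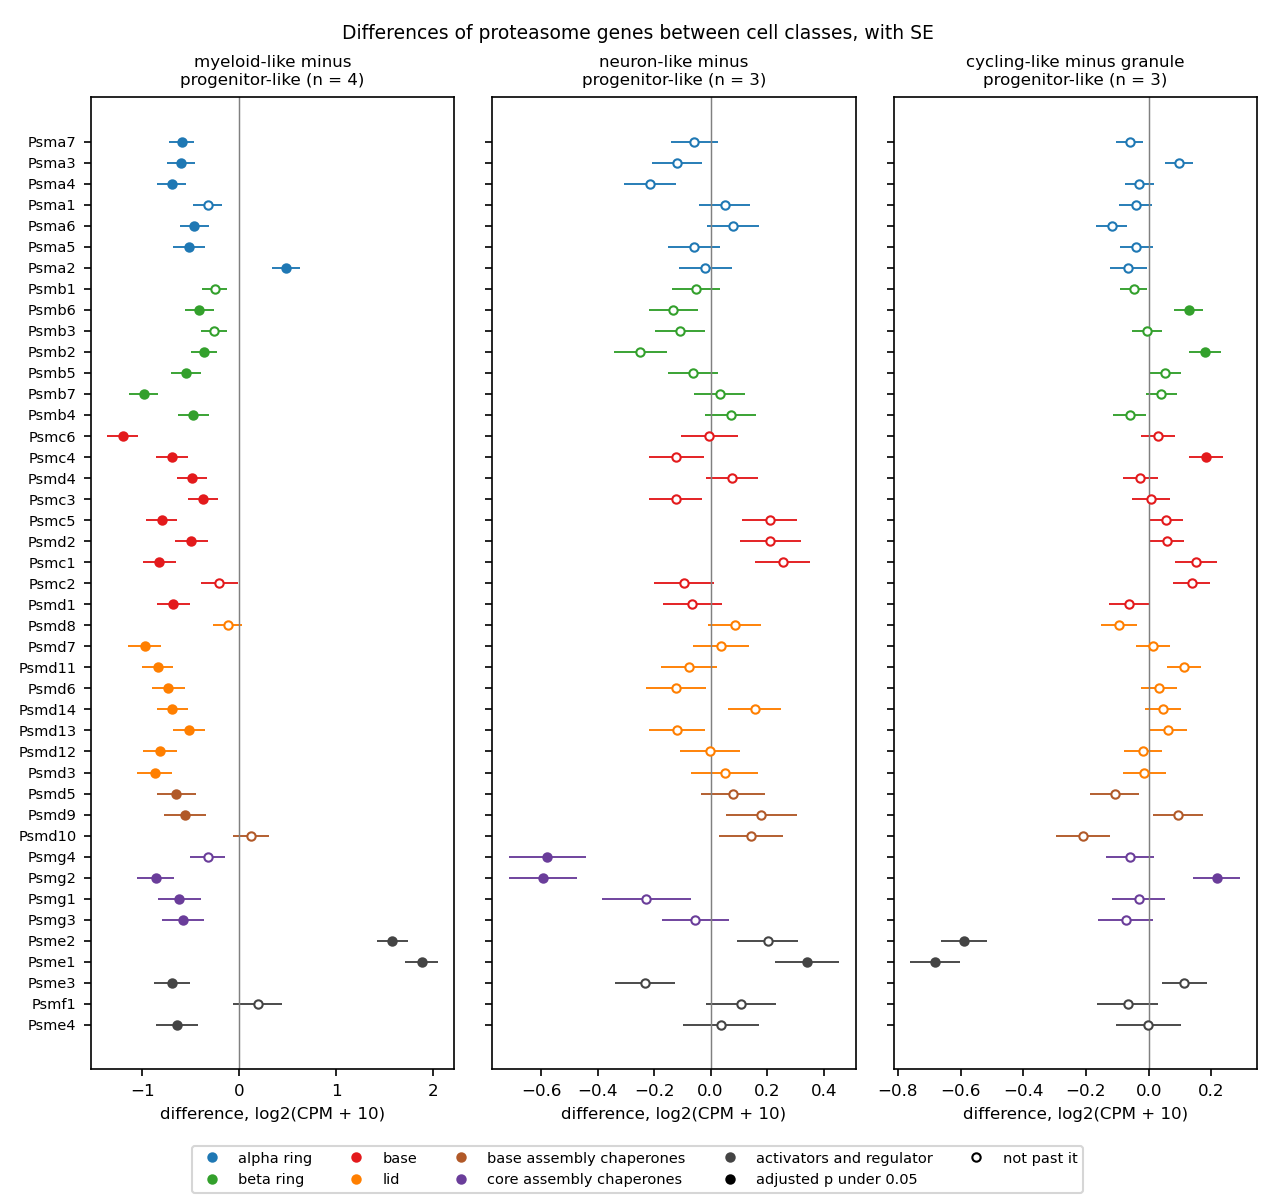
Difference in log2(CPM + 10) with its SE for the 43 tested members, by role, in myeloid-like against progenitor-like (4 tumours), neuron-like against progenitor-like (3 tumours) and cycling-like against granule progenitor-like cells (3 tumours); each panel has its own scale. Filled points have a limma adjusted p under 0.05. Nearly all members lie left of 0 in the first panel, with Psme1 and Psme2 far to the right, while most lie near 0 in the others.

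Taken as a share of the UMIs of the 6 catalytic subunit genes (Psmb8, Psmb9 and Psmb10 over these and Psmb5, Psmb6 and Psmb7), immunoproteasome transcripts made up 59.9, 61.9, 46.7 and 52.6% in the myeloid-like cells of tumours 1 to 4, against 3.12, 2.46, 2.57 and 8.57% in the progenitor-like cells. The widest 95% Wilson interval among these, 38.5% to 55.1%, was that of the 12 myeloid-like cells of tumour 3, and intervals cover counting error only. Dendritic-like cells were measured in 2 tumours, at 78.9 and 71.3% in tumours 2 and 4, and T and NK cell-like cells at 64.2 and 66.6%. The dendritic-like values rest on 11 cells in tumour 2 and 189 in tumour 4, and the T and NK cell-like values on 11 and 160. Neutrophil-like cells had 16.8 and 48.0%. The 11 neutrophil-like cells of tumour 2 carried 2734 CPM of granule progenitor markers, against 234 CPM in the 379 of tumour 4. Cycling-like cells had 2.18, 1.90 and 1.82% and neuron-like cells 3.15, 2.72 and 2.88% in tumours 1 to 3, beside 3.19, 2.98 and 2.84% in granule progenitor-like cells. The constitutive catalytic genes supplied over 90% of the catalytic transcripts in the progenitor-like, cycling-like and neuron-like cells of every tumour measured.

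**Figure D3:**
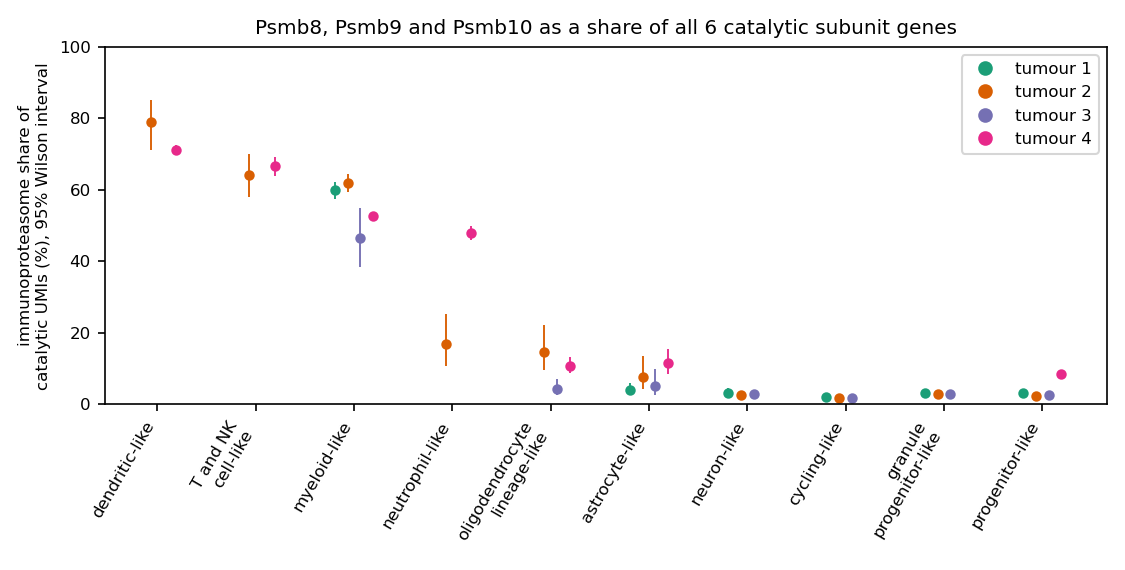
Share of catalytic subunit UMIs from Psmb8, Psmb9 and Psmb10 by cell class and tumour, in percent with 95% Wilson intervals. Dendritic-like, T and NK cell-like and myeloid-like cells lie between 46.7% and 78.9%, and neuron-like, cycling-like and granule progenitor-like cells between 1.82% and 3.19%.

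The PA28 genes were also high in the other immune classes. Psme1 reached 797 and 516 CPM in dendritic-like cells of tumours 2 and 4, 491 and 425 CPM in T and NK cell-like cells and 123 and 273 CPM in neutrophil-like cells. Psme2 had 674 and 328 CPM in dendritic-like cells, 797 and 370.3 CPM in T and NK cell-like cells and 154 and 398 CPM in neutrophil-like cells, so the order of these classes differed between the genes and between the tumours. All 12 values lay above those of progenitor-like cells in the same tumour, which were 67.8 and 102 CPM for Psme1 and 77.9 and 115 CPM for Psme2. Psme3 had 81.8 and 36.7 CPM in dendritic-like and 120.4 and 44.5 CPM in T and NK cell-like cells, against 107 and 68.2 CPM in progenitor-like cells, and both immune values of tumour 4 were below the progenitor-like one. With 2 tumours, no test was made in these classes, and each of them had 11 cells in tumour 2. In T and NK cell-like cells of tumours 2 and 4 the catalytic Psmb5 had 269 and 184 CPM, against 330.4 and 349 CPM in progenitor-like cells. Psmb6 had 306 and 184 CPM, against 428 and 405 CPM, and Psmb7 had 232 and 135 CPM, against 359 and 339.7 CPM. All 3 were lower in both tumours.

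**Figure D4:**
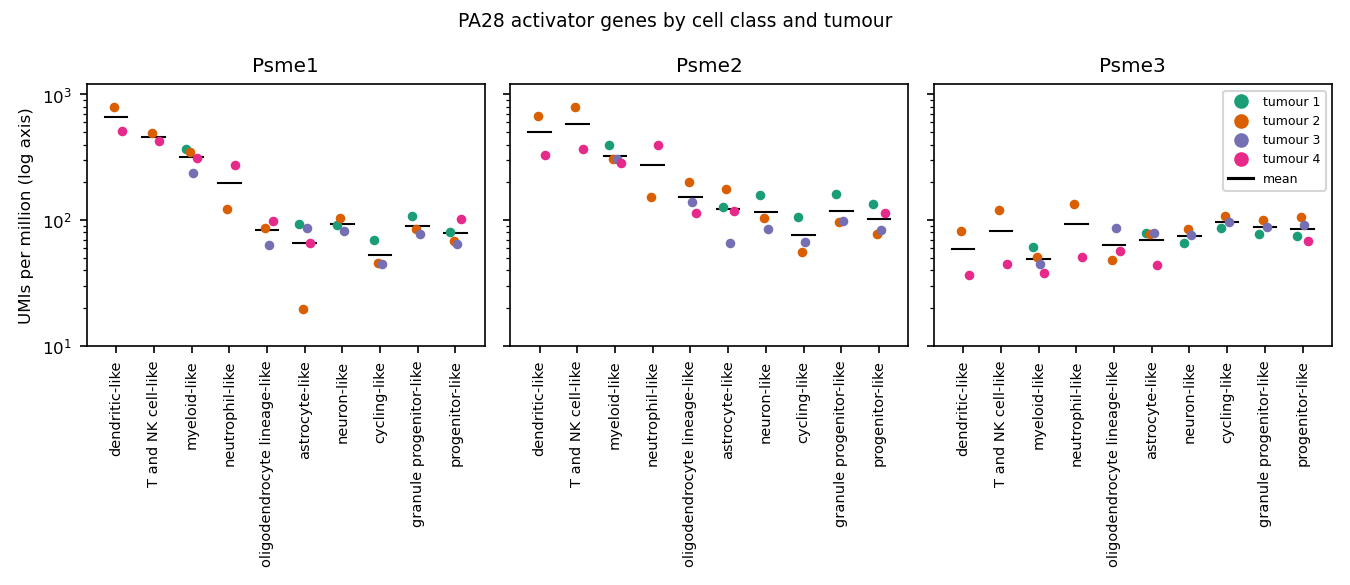
Psme1, Psme2 and Psme3 in CPM (log axis) by cell class, with 1 point per tumour and the mean as a bar. By mean, Psme1 and Psme2 are highest in dendritic-like, T and NK cell-like and myeloid-like cells and lower in cycling-like cells than in the 6 other classes measured in at least 3 tumours, among which Psme3 is highest in cycling-like cells.

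In cycling-like cells, set against granule progenitor-like cells, the PA28 genes Psme1 and Psme2 fell and most other members did not pass the test. Of 43 genes 4 rose, 2 fell and 37 did not pass the test, while 13.1% of all 9537 genes rose and 14.6% fell, 27.7% in either direction. Groups did not overlap for 2 members that were higher and 1 that was lower, against 8.91% and 10.0% of all genes tested. The median difference was -0.01 for the 43 genes, beside -0.02 for all 9537 genes tested. The largest differences were falls of the PA28 genes. Psme1 had 69.4, 45.4 and 44.5 CPM in cycling-like cells, against 108, 85.2 and 78.1 CPM in granule progenitor-like cells of tumours 1 to 3 (difference -0.68 ± 0.08, limma adjusted p = 4.35e-07), with no overlap. Psme2 had 106, 55.5 and 66.9 CPM in cycling-like cells, against 161, 97.2 and 98.3 CPM in granule progenitor-like cells (difference -0.59 ± 0.07, limma adjusted p = 1.16e-06), lower in each tumour though the groups overlapped. Psmb10 moved the same way, with 17.9, 20.2 and 18.0 CPM in cycling-like cells, against 27.8, 32.4 and 26.4 CPM in granule progenitor-like cells (difference -0.43 ± 0.10, limma adjusted p = 0.00173); Psmb8 and Psmb9 were too low to test. The myeloid markers were also lower in the cycling-like cells, at 245, 36.0 and 16.4 CPM, against 357.8, 44.1 and 20.4 CPM in granule progenitor-like cells. Their part in the falls was not tested.

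The rises were small. The beta ring subunit Psmb2 had 372, 413 and 334 CPM in cycling-like cells, against 304, 360.0 and 319 CPM in granule progenitor-like cells (difference 0.18 ± 0.05, limma adjusted p = 0.00995), and the base ATPase Psmc4 had 204, 271 and 234 CPM in cycling-like cells, against 180.3, 244 and 197 CPM in granule progenitor-like cells (difference 0.18 ± 0.05, limma adjusted p = 0.0134). The caspase-like Psmb6 had 472, 443 and 428 CPM in cycling-like cells, against 406, 434 and 388 CPM in granule progenitor-like cells (difference 0.13 ± 0.05, limma adjusted p = 0.0456). Each rose in all 3 tumours while the groups overlapped. The chaperone Psmg2 had 93.6, 79.6 and 85.3 CPM in cycling-like cells, against 71.8, 68.5 and 77.8 CPM in granule progenitor-like cells (difference 0.22 ± 0.08, limma adjusted p = 0.0363), without overlap. The members always reported gave values that did not pass: Psmb5 had a difference of 0.05 ± 0.05, Psmb7 0.04 ± 0.05, Psmd14 0.05 ± 0.06 and Psme3 0.11 ± 0.07. Cycling-like cells were deeper, with median UMIs of 16444, 11080 and 10429 in tumours 1 to 3, against 10520, 7232 and 6386 in granule progenitor-like cells. With cells thinned to 4900 UMIs, 3 members rose and 3 fell, beside 9.74% and 8.31% of all genes. Of these 6 calls, 4 were shared with the values above, and Psmb2 and Psmb6 were lost. The call on Psmb6 was lost in 10 of 12 alternatives (limma adjusted p = 0.0528 to 0.729 there, differences 0.04 to 0.18 over all of them), that on Psmb2 in 5 of 12 alternatives (limma adjusted p = 0.0717 to 0.656 there, differences 0.10 to 0.24 over all of them), that on Psmg2 in 5 of 12 alternatives (limma adjusted p = 0.0595 to 0.536 there, differences 0.12 to 0.38 over all of them) and that on Psmc4 in 3 of 12 alternatives (limma adjusted p = 0.0859 to 0.719 there, differences 0.14 to 0.25 over all of them). Among these were leaving out tumour 1 for Psmb2, tumour 1 or 3 for Psmb6, tumour 3 for Psmc4 and tumour 1 or 2 for Psmg2. Limma called 0 members when the tumour was not kept as a block, with 2 at an unadjusted p under 0.05.

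Of 31 partners of the proteasome tested, 4 rose and 6 fell, beside the 13.1% and 14.6% of all genes. Akirin2, which in human cells carries proteasomes into the nucleus after division, had 125, 117 and 88.9 CPM in cycling-like cells, against 58.4, 48.7 and 51.7 CPM in granule progenitor-like cells (difference 0.92 ± 0.08, limma adjusted p = 6.93e-09). The polyubiquitin gene Ubb had 4035, 5389 and 4484 CPM in cycling-like cells, against 3079, 3861 and 3469 CPM in granule progenitor-like cells (difference 0.41 ± 0.02, limma adjusted p = 2.9e-12). Both rose in every tumour without overlap. Nfe2l2 fell, with 37.5, 41.2 and 37.6 CPM in cycling-like cells, against 55.1, 64.2 and 44.6 CPM in granule progenitor-like cells (difference -0.40 ± 0.09, limma adjusted p = 0.00192). Fbxo7, an F-box protein that binds Psmf1, had 5.64, 3.92 and 3.20 CPM in cycling-like cells, against 7.79, 8.52 and 9.61 CPM in granule progenitor-like cells (difference -0.39 ± 0.10, limma adjusted p = 0.00602). Both were lower without overlap, and the limma adjusted p was 0.0591 without tumour 2 for Nfe2l2 and 0.0575 without tumour 2 and 0.0661 without tumour 3 for Fbxo7. Of the 19 genes of the anaphase-promoting complex and its regulators, 11 rose and 0 fell, with a median of 0.43; this list holds cell cycle genes, and the cycling-like class was named from cell cycle markers, so its rise is a description of the class.

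In neuron-like cells, against progenitor-like cells, a pair of core chaperones fell and few other members passed the test. Of 43 genes 1 rose, 2 fell and 40 did not pass, while 35.2% of all 9616 genes were called, 19.2% higher and 16.0% lower. Groups did not overlap for 1 member that was higher and 3 that were lower, against 17.9% and 14.0% of all genes tested. The median difference was -0.02 for the 43 genes, beside 0.02 for all 9616 genes tested. No member of the alpha ring, beta ring, base or lid passed, though the lid subunit Shfm1 (Sem1), which is not a member, fell (below). The 2 that fell were core chaperones. Psmg2 had 43.5, 41.2 and 62.2 CPM in neuron-like cells, against 78.02, 75.9 and 79.9 CPM in progenitor-like cells of tumours 1 to 3 (difference -0.59 ± 0.12, limma adjusted p = 0.0018). Psmg4 had 46.0, 40.5 and 63.2 CPM in neuron-like cells, against 94.1, 70.9 and 71.8 CPM in progenitor-like cells (difference -0.58 ± 0.14, limma adjusted p = 0.00481). Neither gene's groups overlapped, and the other chaperones gave -0.23 ± 0.16 for Psmg1 and -0.05 ± 0.12 for Psmg3, which did not pass.

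Psme1 had 92.1, 104 and 82.0 CPM in neuron-like cells, against 80.9, 67.8 and 64.7 CPM in progenitor-like cells (difference 0.34 ± 0.11, limma adjusted p = 0.0305) and was the member that rose, without overlap. This call was lost in 7 of 13 alternatives (limma adjusted p = 0.114 to 0.814 there, differences 0.04 to 0.43 over all of them), among them thinned cells, trimmed-mean scaling and leaving out tumour 2 or 3. Psme2 had 158, 104 and 84.9 CPM in neuron-like cells, against 135, 77.9 and 83.8 CPM in progenitor-like cells (difference 0.20 ± 0.11, limma adjusted p = 0.167). Neuron-like cells carried fewer myeloid marker transcripts, 185, 31.1 and 16.0 CPM against 274, 37.0 and 20.8 CPM in progenitor-like cells. Set against the granule progenitor-like cells alone, which leave out both the cycling-like and the mixed-phase cells, Psme1 differed by 0.04 ± 0.11 (limma adjusted p = 0.814), whereas Psmg2 and Psmg4 still fell (-0.50 and -0.56, limma adjusted p = 0.00543 and 0.00557). The catalytic subunits did not pass: Psmb5 had 301, 318 and 289 CPM in neuron-like cells, against 310.0, 330.4 and 309 CPM in progenitor-like cells (difference -0.06 ± 0.09). For Psmb6 the difference was -0.13 ± 0.09, for Psmb7 0.03 ± 0.09, for Psmd14 0.16 ± 0.09 and for Psme3 -0.23 ± 0.11. Psmb10 had a difference of -0.03 ± 0.13 and did not pass.

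Among 31 partners, 8 rose and 2 fell, beside the 19.2% and 16.0% of all genes. Uchl1 had 162, 334 and 219.7 CPM in neuron-like cells, against 74.7, 112 and 98.9 CPM in progenitor-like cells (difference 1.20 ± 0.11, limma adjusted p = 6.25e-06). Zfand5, a ubiquitin-binding activator of the proteasome, had 229, 365 and 417 CPM in neuron-like cells, against 155, 236 and 258 CPM in progenitor-like cells (difference 0.60 ± 0.09, limma adjusted p = 0.000211). Both rose in every tumour, Uchl1 without overlap. Shfm1 (Sem1), the small lid subunit whose symbol lies outside the naming rule, had 539, 510.4 and 569 CPM in neuron-like cells, against 743, 626 and 729.9 CPM in progenitor-like cells (difference -0.37 ± 0.09, limma adjusted p = 0.00435). Uchl5, a deubiquitinase of the regulatory particle, had 41.1, 31.4 and 32.998 CPM in neuron-like cells, against 51.7, 60.6 and 45.5 CPM in progenitor-like cells (difference -0.47 ± 0.13, limma adjusted p = 0.0104). Both fell without overlap, though the limma adjusted p of Shfm1 was 0.0625 without tumour 3 and that of Uchl5 0.178 without tumour 2. Of the 19 genes of the anaphase-promoting complex, 2 rose and 6 fell, beside the same shares of all genes. Progenitor-like cells include the cycling-like class, which was named from cell cycle markers, so falls in this list are a description of the classes. The number of members called was 7 without tumour 1 (2 higher, 5 lower), 1 with no block for tumour, 9, all lower, with trimmed-mean scaling and 13, all lower, with the mean of the log2 values. Of all genes, 21.2% were called higher and 20.3% lower without tumour 1, and 6.87% and 5.32% with no block. Trimmed-mean scaling moved the median of all genes by -0.10, so that it stood at -0.07, with the members at -0.15, and 23.4% of all genes were then called lower. With the mean of the log2 values the medians were -0.13 for the members and -0.02 for all genes, of which 19.1% were called lower.

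In astrocyte-like cells (15, 11, 19 and 21 cells in tumours 1 to 4), set against progenitor-like cells, 1 of 43 genes fell and 0 rose by limma, with 4 at an unadjusted p under 0.05. Of all 10461 genes 1.38% fell and 2.98% rose, 4.36% in either direction. Groups did not overlap for 0 members that were higher and 2 that were lower, against 5.31% and 2.79% of all genes tested. The median difference was -0.16 for the 43 genes, beside -0.02 for all 10461 genes tested. The alpha subunit Psma5 had 233, 206, 139 and 219 CPM in astrocyte-like cells, against 279.8, 284, 270.0 and 289 CPM in progenitor-like cells (difference -0.50 ± 0.14, limma adjusted p = 0.0459). Its groups did not overlap, but the call was lost in 8 of 13 alternatives (limma adjusted p = 0.0763 to 0.342 there, differences -0.76 to -0.29 over all of them), among them leaving out tumour 2 or 3. Psmb10 had 36.7, 98.0, 52.9 and 75.1 CPM in astrocyte-like cells, against 27.5, 26.6, 24.8 and 35.7 CPM in progenitor-like cells (difference 0.91 ± 0.24, limma adjusted p = 0.0264), a call lost in 6 of 13 alternatives (limma adjusted p = 0.0546 to 0.278 there, differences 0.28 to 1.10 over all of them), among them thinned cells and leaving out tumour 2 or 3. Myeloid markers summed to 204, 39.2, 238 and 1214 CPM in the astrocyte-like cells, against 274, 37.0, 20.8 and 1014 CPM in progenitor-like cells, and their part in the Psmb10 values was not tested. The astrocyte-like cells also carried granule progenitor markers, at 2548, 2723, 3558 and 1389 CPM, against 2835, 4230.4, 5319 and 1935 CPM in progenitor-like cells, beside astrocyte markers at 1601, 3654, 5304 and 3966 CPM, against 412, 386, 509.7 and 360.2 CPM; the part of progenitor transcripts in these results was not tested. Psmb5, Psmb6, Psmb7, Psmd14, Psme1, Psme2 and Psme3 gave differences of -0.03 ± 0.13, -0.06 ± 0.13, -0.27 ± 0.14, -0.23 ± 0.16, -0.35 ± 0.24, 0.19 ± 0.20 and -0.26 ± 0.19, and none passed.

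In oligodendrocyte lineage-like cells (16, 34 and 39 cells in tumours 2 to 4), limma called 0 of the 43 genes, against 12.9% of 10320 genes (9.25% higher, 3.66% lower), and 6 had an unadjusted p under 0.05. Groups did not overlap for 2 members that were higher and 6 that were lower, against 19.9% and 8.36% of all genes tested. The median difference was -0.11 for the 43 genes, beside 0.08 for all 10320 genes tested. The deubiquitinase Psmd14 had 115, 119.9 and 112 CPM in oligodendrocyte lineage-like cells, against 213, 169 and 139 CPM in progenitor-like cells of tumours 2 to 4 (difference -0.53 ± 0.20, limma adjusted p = 0.103), lower in each tumour. Psme2 had 202, 139.9 and 114 CPM in oligodendrocyte lineage-like cells, against 77.9, 83.8 and 115 CPM in progenitor-like cells (difference 0.65 ± 0.24, limma adjusted p = 0.0999), higher in tumours 2 and 3. Psmb5, Psmb6, Psmb7, Psme1 and Psme3 gave differences of 0.02 ± 0.18, -0.04 ± 0.17, -0.26 ± 0.18, 0.08 ± 0.22 and -0.43 ± 0.25. Under trimmed-mean scaling 14 members fell, beside 13.5% of all genes called lower. With the mean of the deposited log2 values 21 members fell, beside 14.5% of all genes. Psmb10 rose, with 106, 46.6 and 51.7 CPM in oligodendrocyte lineage-like cells, against 26.6, 24.8 and 35.7 CPM in progenitor-like cells (difference 0.93 ± 0.28, limma adjusted p = 0.0442), a call lost in 8 of 13 alternatives (limma adjusted p = 0.075 to 0.327 there, differences 0.17 to 1.21 over all of them), among them trimmed-mean scaling, clustering at resolution 0.5 or 2, and leaving out tumour 2 or 3. Myeloid markers there were at 28.8, 13.3 and 987 CPM, against 37.0, 20.8 and 1014 CPM in progenitor-like cells. Neutrophil markers were at 115, 73.3 and 725 CPM, against 11.5, 7.23 and 1087 CPM in progenitor-like cells. The class itself differed between tumours, with oligodendrocyte markers at 17111, 2215 and 207 CPM in tumours 2 to 4. The part of these in the results of this class was not tested. Among 31 partners 1 rose and 1 fell. Fbxo7 rose, with 135, 109.9 and 55.8 CPM in oligodendrocyte lineage-like cells, against 6.05, 7.11 and 4.69 CPM in progenitor-like cells (difference 2.71 ± 0.29, limma adjusted p = 6.31e-05), and every value lay above every progenitor-like value. Shfm1 fell, with 490.3, 483 and 760.2 CPM in oligodendrocyte lineage-like cells, against 626, 729.9 and 1129 CPM in progenitor-like cells (difference -0.50 ± 0.15, limma adjusted p = 0.0448), a call lost in 8 of 13 alternatives (limma adjusted p = 0.051 to 0.853 there, differences -1.03 to -0.06 over all of them), among them clustering at resolution 0.5 or 2 and leaving out tumour 3 or 4.

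The tissue-restricted core subunits were nearly absent. Psmb11, the thymus catalytic subunit, had 1 UMI, in tumour 1. Psma8, the alpha subunit known from testis, had 47 UMIs in 45 cells, and its distribution was uneven: 34 UMIs were in myeloid-like cells, 10 in dendritic-like cells and 3 in all other cells. The myeloid-like level was 4.31 and 6.02 CPM in tumours 1 and 2 and 5.30 CPM in tumour 4, against 0.0652 and 0.0531 CPM in the progenitor-like cells of tumours 1 and 2 and no UMI in those of tumour 4, which allows up to 1.08 CPM. Psma8 was not listed in tumour 3. No test was made, since the gene did not pass the filter.

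Transcript ends were compared with all annotated transcripts, because reads of such assays come mostly from one end. The last 400 bases of Psma4, Psmb3, Psmb5, Psmd1, Psmd11 and Psme2 matched another gene at 98% identity or more over at least 300 bases, and their counts are uncertain to that extent. Psme2 shares its end with Psme2b, annotated as protein-coding on chromosome 11, which took 18.2%, 10.6%, 17.4% and 17.9% of the UMIs of both in tumours 1 to 4. The copy moved in the direction of Psme2 in both comparisons that called Psme2: it had 99.1, 33.7, 102 and 59.4 CPM in myeloid-like cells, against 29.2, 9.23, 17.7 and 23.1 CPM in progenitor-like cells (difference 1.44 ± 0.21, limma adjusted p = 6.11e-05). In cycling-like cells it had 25.6, 7.83 and 12.8 CPM, against 39.5, 11.1 and 21.4 CPM in granule progenitor-like cells (difference -0.39 ± 0.10, limma adjusted p = 0.0055). Since the ends are nearly identical, the values of Psme2b may not be a measurement separate from Psme2. The copy of Psmb3, Gm4950, took 8.33%, 4.56%, 7.96% and 16.9% of the UMIs of both. Whether the counting used strand is not given in the sources used here.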

How the data were processed

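The labels put all 4 tumours in 1 group. The deposited values are log2(UMI count / size factor + 1) per cell, a scale read from the values; per the submitters' processing notes the authors used Cell Ranger, Seurat and mm10, without versions. Inverting the log2 values gave whole UMIs to 6.25e-14, and the sums of these were not tested with a count model. The filter (500 genes, 10% mitochondrial UMIs) removed 0 cells. The doublet caller marked 25 of 6509 cells (0.384%, 100 expected) and did not work as a filter, so doublets may remain; 6484 cells were analysed.

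Cells were clustered with scanpy 1.11.5 (1000 variable genes, 30 components, leidenalg 0.10.2, resolution 1). UMIs were summed per tumour and class (at least 10 cells, 3 tumours), scaled to CPM and tested as log2(CPM + 10) with limma 3.58.1 (trend, robust, two-sided, Benjamini-Hochberg over genes with a UMI in 5% of cells of either class). The tumour was the block, since both classes of a number come from 1 tumour. P-values rest on how far the difference between classes within a tumour varied among these tumours. Named genes were the catalytic, Psmd14, PA28 and immunoproteasome genes, the 2 largest called differences of 1 sign in every tumour per role, and the 2 partners that rose and fell most. Members, lists and rules were chosen with earlier results of these data known, and the alternative without the deep mixed-phase cluster after seeing the data. The fit was also run on simulated counts with the same depth for every tumour and class, which does not cover the lower depth of the smallest classes. Transcript ends were compared with blastn 2.17.0.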

Additional observations from a re-analysis of the deposited data

Results flagged for a closer look

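Of the 43 genes with a value in all 4 whole tumours, 4 had a tumour whose gap to the nearest other tumour was past Dixon's critical value at the 95% level, and chance flags about 1 in 20 groups of values. Psma5 was 209.5 CPM in tumour 4, against 270.2 to 275 CPM in the others. Psmf1 was 32.5 CPM in tumour 2, against 25.8 to 26.8 CPM. Psmg1 was 30.05 CPM in tumour 4, against 47.6 to 49.7 CPM. Psmg3 was 47.5 CPM in tumour 1, against 36.7 to 38.3 CPM.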

How the results depend on the processing

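The tests rest on 3 or 4 tumours. No gene chosen by the naming rule above changed direction while called under any alternative run. Genes outside that rule, such as Psma2 and Psme2b, were not followed in this way. The number of members called in neuron-like against progenitor-like cells was 3, and became 13 with the mean of the log2 values, 9 with trimmed-mean scaling, 1 with no replicate block, 6 without the deep mixed-phase cluster, and 2 to 7 with each tumour left out. In cycling-like against granule progenitor-like cells it was 6, and became 2 with the mean of the log2 values (Psme1 and Psme2) and 0 with no replicate block (limma, 2 with an unadjusted p under 0.05), with 4 to 5 on leaving out a tumour. In astrocyte-like cells it was 1, and became 9 with the mean of the log2 values, 6 with trimmed-mean scaling, and 0 (limma) with thinned cells, a pseudocount of 1, the 1% filter, no replicate block, resolution 2 or doublets kept (2 to 6 with an unadjusted p under 0.05), with 0 to 1 on leaving out a tumour. The 9 and the 6 were all lower, beside 8.24% and 8.54% of all genes. In oligodendrocyte lineage-like cells the number called was 0, and became 21 with the mean of the log2 values, 14 with trimmed-mean scaling and 1 with thinned cells, with 1 to 2 on leaving out a tumour. The 21 and the 14 were all lower, beside 14.5% and 13.5% of all genes. In myeloid-like cells the number called was 35, and 26 to 36 under the other alternatives, with 21 to 36 on leaving out a tumour. Trimmed-mean scaling moved the median of all genes by -0.10 in the neuron-like, -0.17 in the astrocyte-like and -0.24 in the oligodendrocyte lineage-like comparison; relative to that median the members' median was -0.08, -0.23 and -0.32. The immunoproteasome share of neuron-like cells was 2.91% and 3.31% in thinned cells, and the other shares and ratios moved by less than their SD. The causes were not tested. Resolution 0.5 gave no neuron-like or astrocyte-like class, and T and NK cell-like and neutrophil-like cells had too few tumours for a test, so those alternatives were not run.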
